A study of Mus musculus with 16 samples.

Results

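The 10 genes described here are markers of disease-associated microglia. Trem2, Tyrobp, Axl, Clec7a, Itgax and Cd9 encode receptors, an adapter and other proteins of the cell surface, and Cd68, Mpeg1, Lyz2 and Cst7 encode proteins of lysosomes, phagosomes and granules. They were taken as a named list, 10 of the 55404 genes in the expression table, and the list was drawn up with results of these same mice known. They were thus chosen by the genotype contrast of these values, among other grounds, and the genotype values of these genes are given as a description, without p-values.

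RNA of the whole brain was sequenced from 8 mice homozygous for the Tecpr2 L1152fs knock-in allele (Tecpr2 ki/ki) and from 8 wild-type mice (wt/wt), all untreated males of 5 months. The allele was made with Cas9 in zygotes of the C57BL/6J strain and carries a deletion of 1 base, which shifts the reading frame, and a silent base change used for genotyping. Carriers were bred to the same strain, and wild-type littermates served as controls. The allele is present in every cell type from conception, and whole brain RNA mixes all of them, so that a larger number of microglia and more RNA of a gene per microglial cell cannot be told apart in any value below.

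Microglia are the resident macrophages of the brain. TREM2 is their receptor for lipids and lipoproteins, and it signals through the adapter TYROBP, whose phosphorylated tail recruits the kinase SYK. In models of neurodegeneration, microglia near damaged axons, myelin or deposited protein take up a state in which genes of phagocytosis, lysosomes and lipid handling are raised, part of it in dependence on TREM2, and this state is called disease-associated.

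Values are the deposited normalized counts, rounded to whole numbers, and are called values here. Their totals lay between 11964284 and 12252324 per mouse, and the reads on genes were estimated at 9.23 to 14.3 megareads in Tecpr2 ki/ki and 10.1 to 15.4 megareads in wt/wt mice. Tecpr2 itself lay between 274 and 320 in Tecpr2 ki/ki and between 928 and 1002 in wt/wt mice, a log2 difference of -1.68 (limma, standard error 0.0363, Benjamini-Hochberg adjusted p = 2.16e-47). Defining markers of neurons, astrocytes and oligodendrocytes were abundant in all mice, as the tissue label requires, and those of microglia were present at lower values, with Csf1r, the receptor that microglia need to survive, at 707.9 ± 37.3 in Tecpr2 ki/ki and 698 ± 34.9 in wt/wt mice (SD, n = 8). Of 18 genes of blood leukocytes only Ly6c2, at a mean of 32.8 in Tecpr2 ki/ki and 29.6 in wt/wt mice, and Ccr2 passed the filter on low values. Tecpr2 ki/ki mouse 7 stood apart, with neutrophil genes such as Ngp at 30 and S100a8 at 22, and the summed value of the 18 genes was 156 there, 54 to 72 in the other Tecpr2 ki/ki mice and 46 to 80 in wt/wt mice.

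All 10 markers passed that filter, which asked for a sum over the mice above 16 and for values above 5 in at least 4 mice of a genotype. Itgax and Clec7a passed only through the Tecpr2 ki/ki mice. The mean difference was above 0 for 10 of 10 markers, as it was for 49.5% of the 23244 genes tested. At an adjusted p under 0.1 (limma, Benjamini-Hochberg over all tested genes) 4 of 10 were called higher, namely Trem2, Cd68, Mpeg1 and Itgax, beside 0.0946% of all tested genes. At an unadjusted p under 0.01 and under 0.05, 7 and 8 of 10 were called higher, beside 0.856% and 3.07% of all tested genes. Only Mpeg1 separated the genotypes without overlap, beside 0.0645% of all tested genes that did so with the higher values in Tecpr2 ki/ki. Without Tecpr2 ki/ki mouse 7, 10 of 10 differences were above 0 and 3 markers, Trem2, Cd68 and Mpeg1, were called. Nothing is read from these counts, since the contrast helped to choose the list. Their median log2 difference was 0.44, or 0.37 without Itgax and Clec7a, while that of all tested genes was -0.00.

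**Figure D1:**
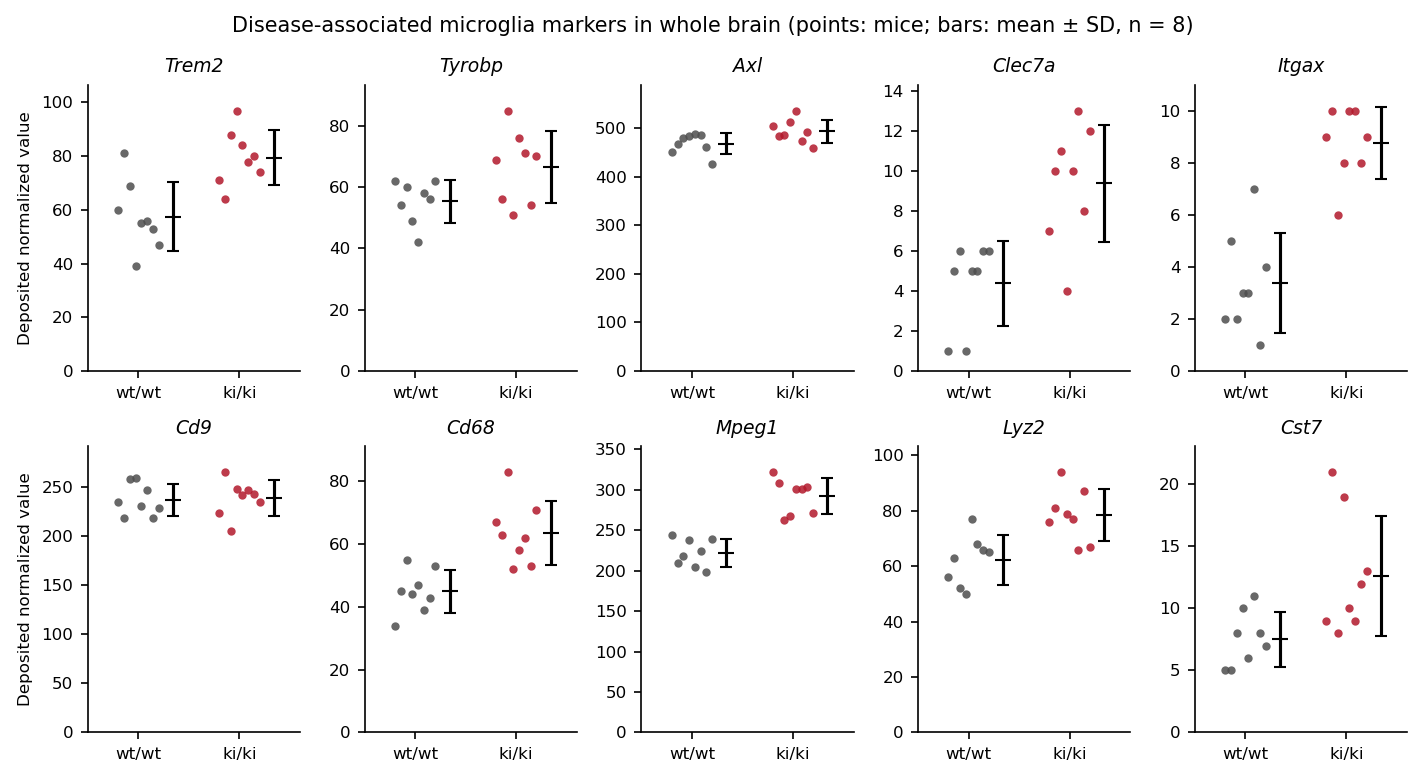
Deposited normalized value of each marker (y axis, from 0, a separate scale per gene) in the 8 wt/wt mice (grey points) and the 8 Tecpr2 ki/ki mice (red points), with mean ± SD beside the points. The genotypes do not overlap for Mpeg1, overlap in 1 Tecpr2 ki/ki mouse for Itgax, and lie over each other for Cd9.

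For the 4 markers called higher, the 250 bases before the RefSeq start of transcription are printed here (GRCm38.p6, strand of the gene, 5′ to 3′). These genes were picked by those calls, which rest on the contrast that helped to choose the markers. The sequences are thus a description only. Capitals mark matches, on either strand, to 3 motifs. The core bound by PU.1, a factor of myeloid cells, was searched as GAGGAA and, for the other strand, as TTCCTC. Factors of the AP-1 family were represented by TGANTCA, which reads alike on both strands. For C/EBP factors the letters searched were TTGCNNAA and, for the other strand, TTNNGCAA. Matches to different motifs did not overlap in the windows printed. They lie at chr17:48346151-48346400 on the plus strand for Trem2, chr11:69666171-69666420 on the minus strand for Cd68, chr19:12460520-12460769 on the plus strand for Mpeg1 and chr7:128129300-128129549 on the plus strand for Itgax.
Trem2: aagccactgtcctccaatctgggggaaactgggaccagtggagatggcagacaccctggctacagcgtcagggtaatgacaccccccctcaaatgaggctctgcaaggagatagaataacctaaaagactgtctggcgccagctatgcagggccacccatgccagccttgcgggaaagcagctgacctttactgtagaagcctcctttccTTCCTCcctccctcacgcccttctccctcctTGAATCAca
Cd68: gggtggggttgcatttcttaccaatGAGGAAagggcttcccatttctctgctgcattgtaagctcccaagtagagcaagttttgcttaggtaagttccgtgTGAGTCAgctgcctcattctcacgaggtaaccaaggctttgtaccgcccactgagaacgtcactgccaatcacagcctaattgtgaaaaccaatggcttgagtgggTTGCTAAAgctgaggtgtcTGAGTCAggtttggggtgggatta
Mpeg1: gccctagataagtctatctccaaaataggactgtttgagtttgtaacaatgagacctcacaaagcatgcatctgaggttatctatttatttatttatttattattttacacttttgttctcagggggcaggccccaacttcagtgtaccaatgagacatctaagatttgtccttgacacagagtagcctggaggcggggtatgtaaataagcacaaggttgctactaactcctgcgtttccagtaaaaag
Itgax: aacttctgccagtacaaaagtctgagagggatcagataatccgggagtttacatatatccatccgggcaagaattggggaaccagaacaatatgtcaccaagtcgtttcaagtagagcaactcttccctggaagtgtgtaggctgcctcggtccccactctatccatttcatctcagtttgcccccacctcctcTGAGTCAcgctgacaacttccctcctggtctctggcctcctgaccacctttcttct
The PU.1 core was found before Trem2 and Cd68, and before 4 of the 9 markers with an entry in the table in all, the others being Clec7a and Axl. It was found before 23.1% of the 27025 promoters in the table. TGANTCA occurred before Trem2, Itgax and, at 2 places, Cd68, so before 3 of 9 markers and 6.87% of all promoters. TTGCNNAA occurred before 1 of 9 markers, Cd68, and before 9.55% of all promoters, and the E-box CACGTG of the lysosomal regulator TFEB before 0 of 9 markers and 6.05% of all promoters. Mpeg1 held none of the 4 motifs in this window. These are matches of letters only, and no binding was measured.

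Trem2 (ENSMUSG00000023992, chr17:48346401-48354147 in GRCm38, plus strand) had its lowest value of 64, its median of 79 and its highest of 97 in Tecpr2 ki/ki, and 39, 55.5 and 81 in wt/wt mice. Its means were 79.5 ± 10.3 and 57.5 ± 12.9 (SD, n = 8 each), a log2 difference of 0.48 (standard error 0.108). The genotypes overlapped: 3 Tecpr2 ki/ki mice were above every wt/wt mouse and 6 wt/wt mice were below every Tecpr2 ki/ki mouse. The overlap came from wt/wt mice 2 and 3, at 81 and 69, which stood above the other wt/wt mice. The call of Trem2 was lost when mouse 4 of Tecpr2 ki/ki was left out, and likewise for mouse 4 or 8 of wt/wt, with log2 differences from 0.41 to 0.55 when 1 mouse was left out.

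Tyrobp (ENSMUSG00000030579, chr7:30413760-30417585, plus strand), which encodes the signalling adapter of TREM2 and of several other myeloid receptors, differed less than its partner. It lay at 51, 69.5 and 85 (lowest, median, highest) in Tecpr2 ki/ki and at 42, 57 and 62 in wt/wt mice. The means of 66.5 ± 11.8 and 55.4 ± 6.95 gave a log2 difference of 0.25 (standard error 0.107). The Tecpr2 ki/ki mice fell apart into 5 above every wt/wt mouse and 3, at 51 to 56, within the wt/wt range. Its promoter has no entry in the table used here.

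Axl (ENSMUSG00000002602, chr7:25757273-25788705, minus strand) encodes a receptor tyrosine kinase that binds phosphatidylserine on dying cells through the bridging protein GAS6. Its values were 460, 489.5 and 537 in Tecpr2 ki/ki and 427, 474.5 and 488 in wt/wt mice, with means of 494 ± 23.8 and 469 ± 21.3. The log2 difference was 0.08 (standard error 0.0390), and 4 Tecpr2 ki/ki mice stood above every wt/wt mouse. Endothelial cells and astrocytes also express Axl, and its value was the highest of the 10 in every mouse before length was taken into account.

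Itgax (ENSMUSG00000030789, chr7:128129547-128150657, plus strand), the integrin alpha chain CD11c, had the largest ratio of the 10 on the lowest values. It lay at 6, 9 and 10 in Tecpr2 ki/ki and at 1, 3 and 7 in wt/wt mice, and the means of 8.75 ± 1.39 and 3.38 ± 1.92 stood in a ratio of 2.59. On the log2(value + 1) scale the difference was 1.26 (standard error 0.300). Only 1 mouse of each genotype crossed: Tecpr2 ki/ki mouse 3, at 6, was below wt/wt mouse 6, at 7. Values this low change by whole steps of rounding, and the difference was 0.50 with a pseudocount of 10 in place of 1. The call held when the mouse left out was mouse 3 of Tecpr2 ki/ki or mouse 2, 6 or 8 of wt/wt, and was lost without any of the other 12. Of the 31-base words in its transcripts, 10.7% are shared with Itgad, so reads there could have been counted for either gene.

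Clec7a (ENSMUSG00000079293, chr6:129461591-129472779, minus strand) encodes dectin-1, a lectin receptor for beta-glucans that also signals through SYK. It was as low as Itgax, with 4, 10 and 13 in Tecpr2 ki/ki and 1, 5 and 6 in wt/wt mice and means of 9.38 ± 2.92 and 4.38 ± 2.13. The log2 difference was 1.04 (standard error 0.306). It was 0.43 with a pseudocount of 10. Tecpr2 ki/ki mouse 4, at 4, lay inside the wt/wt range, and the other 7 were above every wt/wt mouse.

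Cd9 (ENSMUSG00000030342, chr6:125460266-125494791, minus strand) encodes a tetraspanin that oligodendrocytes and other brain cells also make. Its values of 205, 242.5 and 265 in Tecpr2 ki/ki and 218, 232 and 259 in wt/wt mice covered each other, and the log2 difference was 0.01 (standard error 0.0547). The lowest mouse of all 16 was a Tecpr2 ki/ki mouse, and so was the highest. Leaving out 1 mouse at a time moved the difference between -0.01 and 0.04, with a negative sign when mouse 2 of either genotype or mouse 7 of wt/wt was left out, so that no direction can be given for Cd9. The gene Gm26728 on the opposite strand shares 218 of its exon bases and had a mean value of 2.44. Of the 31-base words in the Cd9 transcripts, 10.8% are shared with other genes, 723 in all, and at most 3.73% with any 1 of them. Reads there could have been counted for another gene.

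Among the lysosomal and phagosomal genes, Cd68 (ENSMUSG00000018774, chr11:69664213-69666153, minus strand) encodes a heavily glycosylated lysosomal membrane protein of macrophages. It lay at 52, 62.5 and 83 in Tecpr2 ki/ki and at 34, 44.5 and 55 in wt/wt mice, with means of 63.6 ± 10.2 and 45 ± 6.87 and a log2 difference of 0.49 (standard error 0.112). The ranges met only at their ends: 6 Tecpr2 ki/ki mice were above every wt/wt mouse, and the remaining ones, mice 4 and 7 at 52 and 53, were below or level with wt/wt mice 3 and 8. Its call was lost when mouse 1, 3 or 8 of Tecpr2 ki/ki was left out, or mouse 1 or 6 of wt/wt, while the log2 difference lay between 0.43 and 0.53 over all 16 omissions.

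Mpeg1 (ENSMUSG00000046805, chr19:12460779-12465283, plus strand), which encodes perforin-2, a pore-forming protein of macrophage phagosomes, separated the genotypes. It lay at 263, 301 and 322 in Tecpr2 ki/ki and at 198, 221 and 244 in wt/wt mice. The means of 292 ± 21.9 and 222 ± 17.3 gave a log2 difference of 0.40 (standard error 0.0539). Every Tecpr2 ki/ki mouse was above every wt/wt mouse, and its call held in 16 of 16 fits without 1 mouse.

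Lyz2 (ENSMUSG00000069516, chr10:117277331-117282321, minus strand) encodes the lysozyme of macrophages. Its values were 66, 78 and 94 in Tecpr2 ki/ki and 50, 64 and 77 in wt/wt mice, with means of 78.4 ± 9.38 and 62.1 ± 9.0 and a log2 difference of 0.33 (standard error 0.0981). In 4 Tecpr2 ki/ki mice it was above every wt/wt mouse. Neutrophils and monocytes also express Lyz2, and without Tecpr2 ki/ki mouse 7, the mouse with the raised neutrophil genes, the difference was 0.31 (standard error 0.102). Its paralog Lyz1 shares 32.8% of the 31-base words of Lyz2, but its own values lay between 0 and 5 with a mean of 2.5 in either genotype, and it did not pass the filter on low values.

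Cst7 (ENSMUSG00000068129, chr2:150570415-150578944, plus strand) encodes cystatin F, an inhibitor of lysosomal cysteine proteases. It lay at 8, 11 and 21 in Tecpr2 ki/ki and at 5, 7.5 and 11 in wt/wt mice, with means of 12.6 ± 4.87 and 7.50 ± 2.20. The log2 difference was 0.65 (standard error 0.239). Tecpr2 ki/ki mice 2 and 4 stood highest at 21 and 19, while the other 6 lay between 8 and 13. In 4 Tecpr2 ki/ki mice the value was above every wt/wt mouse.

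Summed over the 10 markers, the values ran from 1282 to 1405 (median 1340) in Tecpr2 ki/ki and from 1111 to 1209 (median 1155.5) in wt/wt mice without overlap, a sum in which Axl, Mpeg1 and Cd9 weigh most. Nothing is read from this separation, since the contrast helped to choose the markers. Of the single markers only Mpeg1 separated the genotypes. As the plot of differences per marker shows, Itgax, Clec7a and Cst7, the markers with the lowest values, had the largest log2 differences with the widest errors, Cd68, Trem2, Mpeg1, Lyz2 and Tyrobp lay between 0.25 and 0.49, and Axl and Cd9 were at 0.08 and 0.01.

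**Figure D2:**
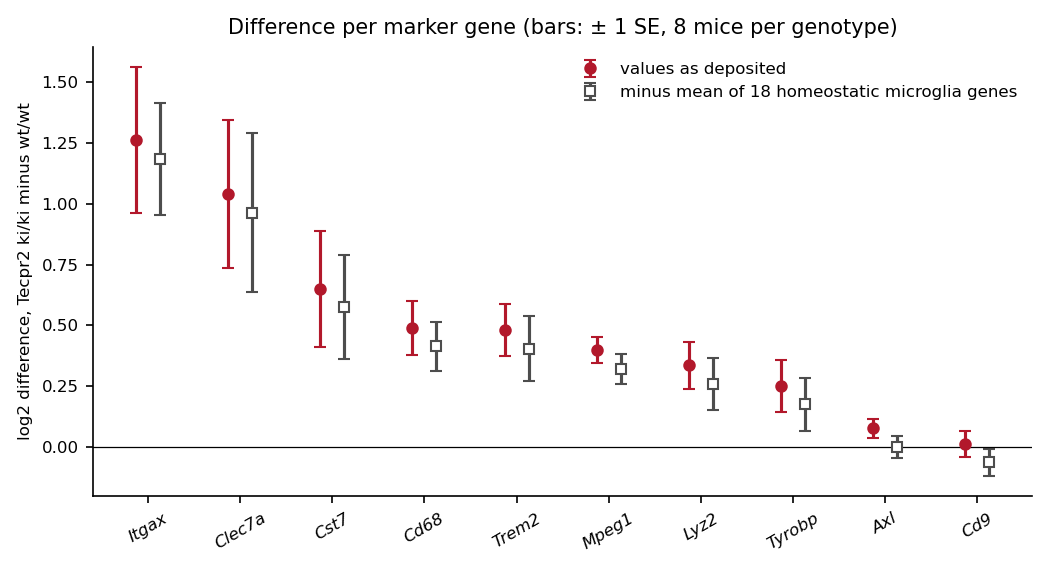
Log2 difference of each marker, Tecpr2 ki/ki minus wt/wt, with bars of 1 standard error (8 mice per genotype): red circles, values as deposited, open squares, the same after subtracting from each mouse the mean log2 value of 18 homeostatic microglia genes. Bars of the circles are from the limma fit and those of the squares from the plain spread between mice, so their lengths are not comparable. The difference falls from 1.26 for Itgax to 0.01 for Cd9, and the subtraction takes 0.08 from each marker.

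Levels can be compared between genes only per length. Divided by the length of the longest principal protein-coding transcript, Cd9 was the most abundant in both genotypes, at 194 ± 14.7 per kb in Tecpr2 ki/ki and 193 ± 13.4 per kb in wt/wt mice (values per kb, mean ± SD, n = 8). Tyrobp and Axl followed, at 118 ± 21.0 and 116 ± 5.59 per kb in Tecpr2 ki/ki and at 98.2 ± 12.3 and 109.9 ± 5.00 per kb in wt/wt mice, and their ranges overlapped in each genotype. Trem2, Mpeg1, Lyz2 and Cd68 came next in that order in both genotypes, from 73.1 ± 9.48 down to 51.7 ± 8.27 per kb in Tecpr2 ki/ki and from 52.8 ± 11.9 down to 36.6 ± 5.58 per kb in wt/wt mice, each with a range that overlapped the next. The adapter Tyrobp was thus above its receptor Trem2 in every mouse of either genotype on this scale. Well below lay Clec7a, at 13.3 ± 4.14 and 6.19 ± 3.02 per kb, and Cst7, at 12.8 ± 4.94 and 7.61 ± 2.24 per kb. Their ranges overlapped in each genotype, and their order depends on the length chosen. It was 707 of 2638 exon bases for Clec7a and all 986 for Cst7. For Trem2 it was 1088 of 4946 exon bases, so its place in the order depends on that choice too. Itgax was the lowest at 2.16 ± 0.343 and 0.834 ± 0.475 per kb.

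How far mice of a genotype differed was set against the spread that counting of reads alone would give at the estimated depth. For most markers the spread was close to counting noise: the pooled ratio of variances was 1.06 for Axl, 1.19 for Lyz2, 1.25 for Cd9, 1.37 for Cd68, 1.39 for Cst7, 1.5 for Mpeg1 and 1.53 for Tyrobp, beside a median of 1.33 over all tested genes. Itgax and Clec7a were at 0.448 and 0.925, with Tecpr2 ki/ki at 0.209 and 0.866 and wt/wt at 1.11 and 1.06, at levels where rounding is coarse. Tyrobp and Cst7 were at 2.01 and 1.78 in Tecpr2 ki/ki and at 0.905 and 0.666 in wt/wt mice. Trem2 had the highest ratio, 1.98 pooled, which came from the wt/wt mice: it was 3.02 there and 1.278 in Tecpr2 ki/ki mice, and the 100 genes nearest in level had a median of 1.15. With 8 mice a variance is itself imprecise, and these ratios are descriptions.

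Variation within a genotype was not used in choosing the markers, so it could be asked whether Trem2 and the other markers went up and down together from mouse to mouse. In Tecpr2 ki/ki mice Pearson's r with Trem2 was above 0 for 3 of 9 markers and in wt/wt mice for 6 of 9, and 0 of 18 relations had an adjusted p under 0.05, with 0 unadjusted for r and 1 for Spearman's rho (exact two-sided permutation over 40320 orders of 8 mice, Benjamini-Hochberg over 18 relations). For Tyrobp, the partner of TREM2, r was 0.03 in Tecpr2 ki/ki (exact permutation p = 0.937, adjusted 0.969) and 0.21 in wt/wt mice (exact permutation p = 0.606, adjusted 0.909). The smallest p belonged to Mpeg1 in Tecpr2 ki/ki mice, where r was -0.65 (exact permutation p = 0.0880, adjusted 0.909) and Spearman's rho -0.77 (exact permutation p = 0.0314, adjusted 0.566). It weakened to r = -0.49 without the 2 mice farthest from the median of Trem2. A joint rise and fall of Trem2 with another marker was not detectable at this depth and number of mice. Over all 45 pairs of markers, which were not tested, the median r was -0.07 in Tecpr2 ki/ki (from -0.81 to 0.77), with 18 pairs above 0. In wt/wt mice it was 0.06 (from -0.65 to 0.62), with 26 above 0.

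**Figure D3:**
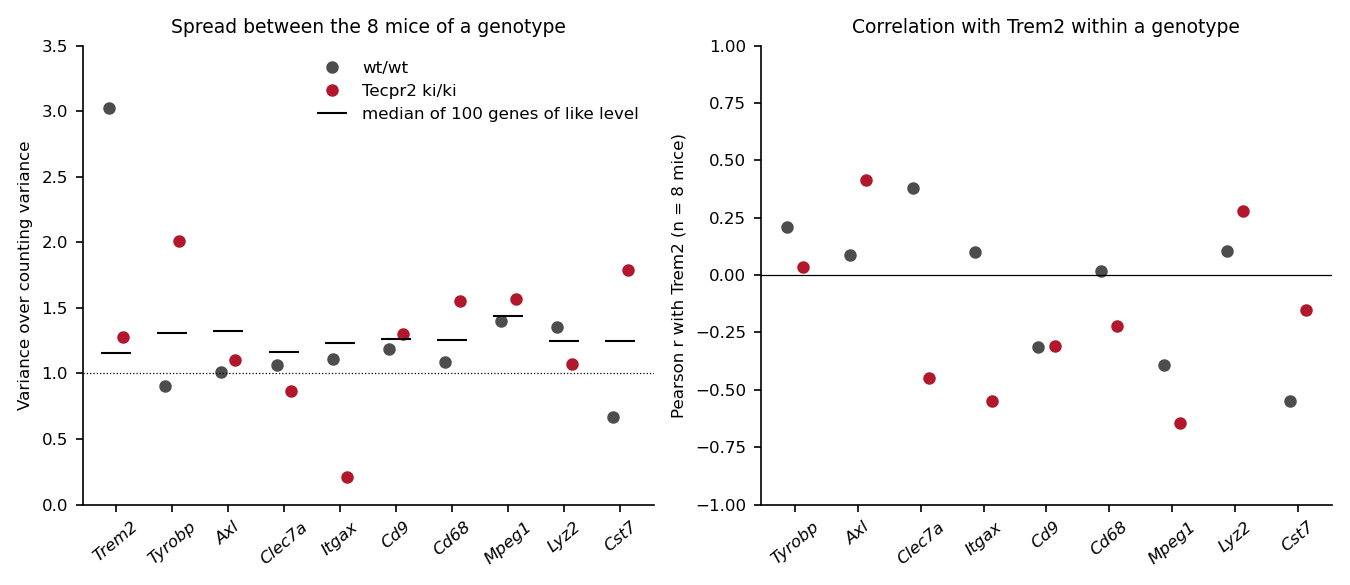
Left, variance between the 8 mice of a genotype divided by the variance that counting alone gives (y axis, dotted line at 1), per marker and genotype, with the median of 100 genes of like level as a dash; Trem2 in wt/wt mice stands highest at 3.02. Right, Pearson r between Trem2 and each other marker over 8 mice of a genotype; the points lie on both sides of 0.

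By the deviation of each mouse from its genotype mean, averaged over the 10 standardized markers, the 10 genes most like them among 13758 genes with a mean value of at least 50 were Arpp19, Ccng1, Gabra5, Npy1r, Gpsm1, Neu1, Zfpl1, Cldn10, Slc1a2 and Eif3d, with r from 0.91 down to 0.78 over 16 mice. None is in the lists of microglial genes used here, and Slc1a2, the main glutamate transporter, is an astrocyte marker. All points share library and depth, and such maxima over many genes are given as a description. The median r was 0.12 for the 16 homeostatic microglia genes at this level, 0.29 for 14 pan-macrophage genes, 0.29 for 15 pan-neuronal genes, 0.25 for 15 astrocyte genes and 0.03 for all genes. It was 0.11 for 26 other genes of the disease-associated state and 0.30 for 3 genes of border macrophages. For 14 genes of a list of relatives of Lyz2, Cst7 and Cd9, which also held genes of the LAMP family and of tetraspanin partners, it was 0.26. In the remaining lists with genes at this level it lay between -0.04 and 0.05.

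Other genes of the same state were taken from a list of 37, of which 34 were tested, and this list too was written with earlier results known. Of them 23 were higher and 11 lower, with a median log2 difference of 0.04. At an adjusted p under 0.1, 2 of them rose, both proteases of the lysosome. Ctss, cathepsin S, lay at 442 ± 15.7 in Tecpr2 ki/ki and 361 ± 26.2 in wt/wt mice, a log2 difference of 0.29 (limma, standard error 0.0432, Benjamini-Hochberg adjusted p = 1.58e-05). Ctsd, cathepsin D, differed by 0.13 (limma, standard error 0.0258, Benjamini-Hochberg adjusted p = 0.00950). The genotypes did not overlap for either. The most abundant members of the list were Fth1, Apoe, Ctsb and Timp2, with differences of 0.04, 0.12, 0.04 and 0.06, and none of these passed. At an unadjusted p under 0.01 there were 3 genes of this list, Ctss, Ctsd and Apoe, and under 0.05 there were 5, with Timp2 and Gpnmb. Of all tested genes 49.5% were higher, and 0.0946% were called higher at an adjusted p under 0.1. The shares higher at an unadjusted p under 0.01 and 0.05 were 0.856% and 3.07%. They serve for the lists below as well, all of them chosen with earlier results known.

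Downstream of TREM2 and TYROBP, 19 of 21 genes of adapters, kinases, phosphatases, exchange factors and later effectors such as Card9 and Ctnnb1 were tested, 13 higher and 6 lower, and 0 passed at an adjusted p under 0.1 (limma, Benjamini-Hochberg), with 1 at an unadjusted p under 0.05, Vav1. The median was 0.06. The kinase gene Syk, also singled out afterwards as the first enzyme of the pathway, was at 51.9 ± 9.43 and 45.4 ± 7.98, a difference of 0.19 (standard error 0.12). Of 18 genes of the TREM family, of TREM2 shedding and of other TYROBP partners, 9 were tested and 0 passed at an adjusted p under 0.1 (limma, Benjamini-Hochberg), while Cd33 and Siglech had an unadjusted p under 0.05. The sheddases Adam10 and Adam17, which cut TREM2 from the surface, were at 0.02 and 0.04, and Cd33, a lectin receptor of microglia, at 0.30 (limma, standard error 0.0785, Benjamini-Hochberg adjusted p = 0.135). Trem1, Trem3, Treml4 and Sirpb1a had a median value of 0.

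Phagocytic receptors and the genes around Axl gave 16 higher and 6 lower of 22 tested, with a median of 0.04, and 0 passed at an adjusted p under 0.1 (limma, Benjamini-Hochberg), while 4 had an unadjusted p under 0.05, Fcgr2b, Itgb2, Itgb5 and Lrp1. Tyro3, a sister kinase of AXL, was at -0.04, and Lrp1, a large endocytic receptor gene and the most abundant of the list, at 0.03. The list of relatives of Lyz2, Cst7 and Cd9 also held genes of the LAMP family and of proteins that bind tetraspanins. It gave 10 higher and 6 lower of 16 tested. Of these Cst3, which encodes cystatin C, a protease inhibitor related to cystatin F and secreted by many cell types, rose by 0.13 (limma, standard error 0.0242, Benjamini-Hochberg adjusted p = 0.00605). The tetraspanin genes Tspan7 and Cd81 differed by 0.01 and 0.06 without passing at an adjusted p under 0.1. At an unadjusted p under 0.01 (limma), 2 genes of the list were higher, Cst3 and Cd81, and under 0.05 there were 3.

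Genes of microglia in their resting state, and those of other cells, give the setting of these values. Homeostatic microglia genes were higher in 17 of 18 cases with a median of 0.07, beside 49.5% of all tested genes that were higher. At an adjusted p under 0.1 (limma, Benjamini-Hochberg) 0 of 18 passed. Higher at an unadjusted p under 0.05 were 5, beside 3.07% of all tested genes, among them the purine receptor gene P2ry12 at 0.16. Their summed values ran from 7102 to 7786 in Tecpr2 ki/ki and from 6874 to 7323 in wt/wt mice. Sparc, which astrocytes and endothelium also express, made up 48.1% of this sum, and without it the ranges were 3755 to 3984 and 3469 to 3844, an omission chosen once these values were known. Pan-macrophage genes were higher in 15 of 18 cases with a median of 0.15, and their sums, from 3495 to 4152 and from 3160 to 3473, did not overlap. Besides Ctss, 4 of them rose: the complement genes C1qb by 0.42, C1qa by 0.30 and C1qc by 0.29 (limma with Benjamini-Hochberg adjusted p = 4.72e-06, 0.00219 and 0.00316), and Unc93b1, which brings Toll-like receptors to endosomes, by 0.32 (adjusted p = 0.0583). The call of Unc93b1 was lost when mouse 1, 4, 7 or 8 of Tecpr2 ki/ki was left out, or mouse 1, 5 or 8 of wt/wt, at adjusted p from 0.106 to 0.228.

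To set the markers against the microglial genes measured in the same mouse, the mean log2 value of the 18 homeostatic genes was subtracted, a step chosen after the data had been seen. That mean was 7.57 in Tecpr2 ki/ki and 7.49 in wt/wt mice, and it was above the whole wt/wt range in 6 Tecpr2 ki/ki mice. The step takes the same 0.08 from the difference of every marker. After subtraction 8 of 10 markers had a difference above 0, from 0.17 (standard error 0.107) for Tyrobp to 1.18 (standard error 0.230) for Itgax. Trem2 was at 0.40 (standard error 0.132), Cd68 at 0.41 (standard error 0.102) and Mpeg1 at 0.32 (standard error 0.0611). This count is not read as a result, since the contrast helped to choose the markers. The share of all tested genes above 0 on this scale was not computed. Axl was at -0.00 and Cd9 at -0.07. On this scale the genotypes overlapped for all 10 markers, Mpeg1 included. The standard errors of these relative differences come from the plain spread between mice, not from limma, and cannot be compared with those above.

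Macrophages at the borders of the brain also express several of the markers. Of 10 tested genes of these cells 3 were higher and 7 lower, with a median of -0.04, and 0 passed at an adjusted p under 0.1 (limma, Benjamini-Hochberg), with Cd163 at 0.27 and Pf4 at -0.76 at an unadjusted p under 0.05. Pf4 had means of 3.38 and 6.5 and passed the filter through the wt/wt mice only, where it was the higher. Their sums were 570 to 619 in Tecpr2 ki/ki and 554 to 641 in wt/wt mice, one within the other. Among monocyte, neutrophil and lymphocyte genes, whose sums are given above, Elane, Cd3d, Ms4a1 and Nkg7 had a median value of 0. Oligodendrocyte genes, which matter for Cd9, were higher in 4 and lower in 11 of 15 cases with a median of -0.02.

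Of 15 astrocyte markers 11 were higher and 4 lower, with a median of 0.04, and 3 passed at an adjusted p under 0.1. These were the filament gene Gfap, higher by 0.58, the water channel gene Aqp4, by 0.14, and Slc1a2, by 0.06 (limma with Benjamini-Hochberg adjusted p = 4.67e-27, 3.75e-05 and 0.00229), and the overlapping sums ran from 78582 to 81253 in Tecpr2 ki/ki and from 74601 to 79068 in wt/wt mice. Neuronal genes were higher in 2 and lower in 13 of 15 cases with a median of -0.03, and endothelial and pericyte genes, which matter for Axl, higher in 5 and lower in 10 of 15 with a median of -0.02. The part of other cell types in the values of the 10 markers was not tested.

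**Figure D4:**
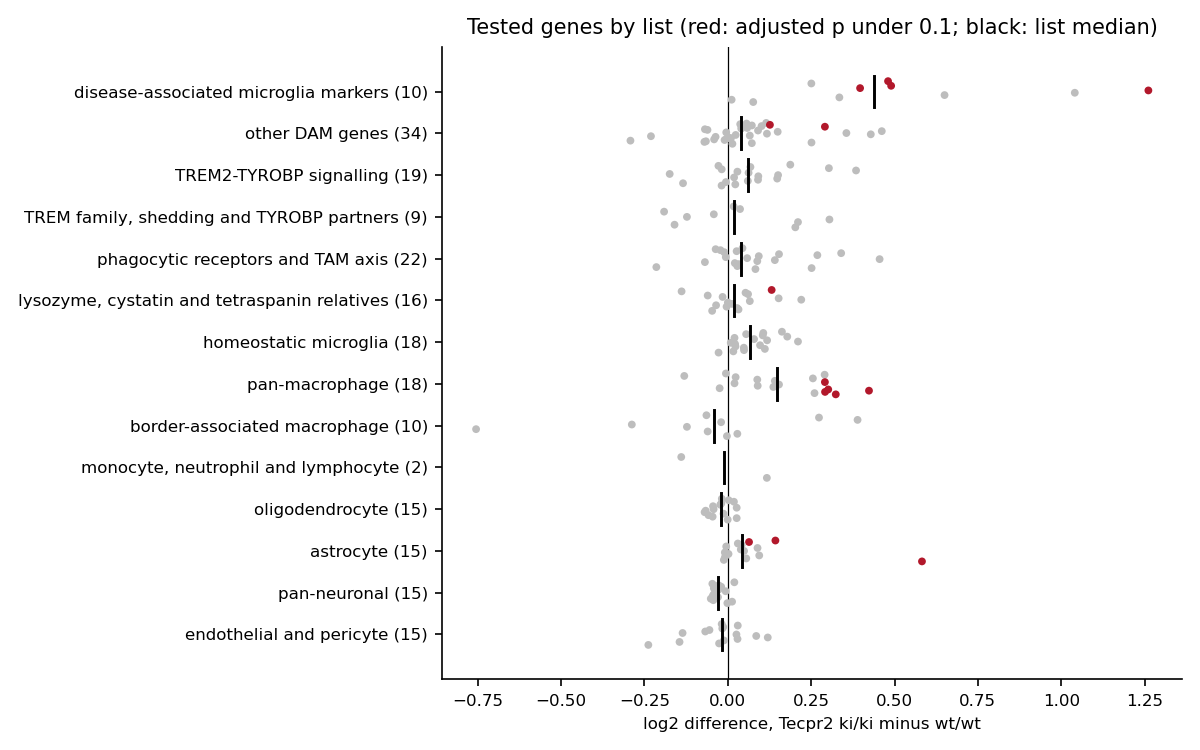
Log2 difference, Tecpr2 ki/ki minus wt/wt (x axis), of each tested gene of the markers and of 13 other lists (number tested in brackets), with genes at an adjusted p under 0.1 in red and the median of each list as a black line. The median of the 10 markers is 0.44, or 0.37 without Itgax and Clec7a, which passed the filter only through Tecpr2 ki/ki mice. It is not read against the other lists, since this contrast helped to choose the markers.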

How the data were processed

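According to the study's methods, the authors trimmed paired reads of stranded, ribosomal RNA-depleted libraries with Trim Galore 0.6.10 and cutadapt 3.4, aligned them to GRCm39 with STAR 2.7.10b, counted them per gene with summarizeOverlaps (mode IntersectionNotEmpty) and tested genes with DESeq2 1.40.2. Each deposited value is a score for 1 gene in 1 mouse, made by the authors as linear normalized counts rounded to whole numbers, whose normalization is not named in the sources used here. Raw counts were not used. The 16 single-mouse tables equalled the joint table.

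The groups came from the sample labels, and sex from the methods. The labels give the replicates as separate samples and tie none to a litter or cage, so p-values measure the spread between these samples. Symbols (52017 of 55404 genes), positions and transcript lengths came from GENCODE vM21 on GRCm38, an earlier build than that of the reads, and promoters from RefSeq on GRCm38.p6. Library depth was estimated by maximum likelihood from gaps and doublings among low whole numbers, which dividing counts leaves behind. In 4 simulated libraries the largest error of this factor was 0.

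Genes with a sum above 16 and values above 5 in at least 4 mice of a genotype (23244) were tested with limma 3.58.1 in R 4.3.3 on log2(value + 1), with trend and robust options and genotype as the only term, and with Benjamini-Hochberg adjustment over all of them. A difference on this scale understates that of genes with low values. In simulated data, 200 of 200 changed genes were recovered among 22871 and 14 of 22671 unchanged genes were called. The changed genes were drawn only from those with a mean value above 200, which among the markers Mpeg1, Cd9 and Axl reach. Recovery at the lower values of the other markers was not simulated. Relations used Python 3.11.15 with scipy 1.17.1, and figures matplotlib 3.10.9.

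The members and all gene lists (245 genes in all, members included) were chosen with earlier results of these data known. Genes named were Tecpr2, the 10 markers, list genes at an adjusted p under 0.1, up to 4 of the most abundant genes of a list, fixed cell type markers, the 10 genes most alike, and Lyz1. Others are Fcgr2b, Itgb2, Itgb5, Vav1, Pf4, Gpnmb, Syk, Card9, S100a8, the genes at a median of 0, and those that share sequence with a marker, and they were named after their values were seen. Alternatives were another pseudocount, no filter, 2 scalings, a replicate block, no robust estimate and leaving out each mouse. Single list genes that fall under the rule are not reported here.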

Additional observations from a re-analysis of the deposited data

Results flagged for a closer look

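In 1 of 42 groups of 8 mice examined, the astrocyte gene Aqp4 in Tecpr2 ki/ki mice, 1 mouse stood apart from the rest by Dixon's criterion: mouse 7 had a value of 2195, while the other 7 Tecpr2 ki/ki mice lay between 2245 and 2287. Its gap to the nearest mouse was 0.543 of the range, above the critical value for 8 samples. Chance alone sets apart a mouse in about 1 in 20 such groups. None of the 10 markers had such a mouse in either genotype.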

How the results depend on the processing

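With no filter on low values 41926 genes were tested, and 20 instead of 31 genes passed at an adjusted p under 0.1. Of the 10 markers 1, Mpeg1, then passed instead of 4, and Slc1a2 (adjusted p = 0.203) and Unc93b1 (adjusted p = 0.146) did not pass (limma, Benjamini-Hochberg), and the cause was not tested. When 1 mouse was left out at a time, 25 to 40 genes and 2 to 4 markers passed, with 2 markers when mouse 1 or 4 of either genotype or mouse 8 of Tecpr2 ki/ki was left out. Other pseudocounts, both scalings and the fit without the robust estimate left 4 markers called and 29 to 34 genes. Without the robust estimate the share of called genes that were higher was 82.8% instead of 71.0%. The difference of Itgax moved from 1.26 to 0.50 with a pseudocount of 10. Relative to homeostatic microglia genes, a step chosen after the data were seen, that of Axl moved from 0.08 to -0.00.

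With the replicate number as a block 46 genes passed, and the same 4 markers were called. The numbers share no stated litter or day, and mice of the same number correlated in their deviations at -0.0393 to 0.149, with 3 of 8 correlating best with their own number, so the numbers were not taken to pair the mice. With values of 1 to 13, Itgax and Clec7a are limited by depth and rounding, and Trem2, Cd68, Tyrobp and Lyz2 by counts under 100 per mouse.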
